A study of Mus musculus with 214 samples.

Results

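Liver sinusoidal endothelial cells and the endothelium of the central veins were followed through 10 genes that mark them in liver RNA. The members are Stab2, Clec4g, Lyve1, Kdr, Oit3, Fcgr2b, Dnase1l3 and Pecam1, taken here as 8 sinusoidal or pan-endothelial genes, and Wnt2 and Rspo3, taken as the 2 endothelial sources of Wnt signal. The rule takes them by gene symbol and uses no measured value, though the members were chosen with earlier results of these data known. All 10 were present among the 18647 genes listed for WT livers and the 19540 listed for Mgmt-/- livers.

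The study asked how a neonatal exposure to N-nitrosodimethylamine (NDMA), a DNA-methylating carcinogen that hepatocytes activate, changes the mouse liver over time. WT mice carried RaDR+/+;GPT+/+, a recombination reporter and a mutation reporter, and Mgmt-/- mice carried RaDR+/+;GPT+/+;Mgmt-/-, so that both groups shared the reporters and differed in Mgmt, the repair protein that removes methyl groups from guanine. Both were on a C57BL6 background and received NDMA by the intraperitoneal route, 3.5 mg/kg when pups were 8 days old and then 7 mg/kg when they were 15 days old, or saline in equal volume. Pieces of whole liver were collected 1, 2 and 5 days, 10 weeks and 10 months after treatment and profiled by 3' digital gene expression sequencing, which counts tags near the end of each transcript. Litters, not single pups, were assigned to a treatment, with separate litters used where the study could, and since the labels used here name no litter, none could be entered in a fit.

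For WT, 26 NDMA and 21 saline livers were profiled on day 1, then 8 and 8 (day 2), 8 and 7 (day 5), 8 and 8 (week 10), and 13 and 10 (month 10). For Mgmt-/-, the numbers were 12 and 12, 8 and 7, 8 and 8, 8 and 8, and 13 and 12. The values are read counts that the authors divided by a size factor for each library, separately for each genotype, and are called normalized reads below. Whole reads could be recovered for 114 WT libraries, which held 150038 to 4791649 reads (median 1710016), and for 95 Mgmt-/- libraries, which held 713584 to 7740710 (median 2347670). In all, 4 WT NDMA libraries held fewer than 300000 reads, 1 each at day 2, day 5, week 10 and month 10, and a gene listed at 0 there may lie below detection. Mgmt itself was measured at no less than 13.004 normalized reads in WT livers (median 45.8, highest 130.0) and at 0 to 9.67 in Mgmt-/- livers (median 1.09), and all 117 WT libraries lay above the highest Mgmt-/- library. A tag near the transcript end may lie outside the deleted part, so this check speaks for the labels and not for the allele.

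Before any comparison, 2 saline libraries of Mgmt-/- mice at day 5 were set aside. They held 6147 and 7562 normalized reads of Kap, a kidney androgen-regulated protein, against 0 to 1.80 in the other 6 saline libraries of that group, and 161 and 525.9 of the hepatocyte gene Alb against 134314 to 150859. Among the members, Lyve1 was listed at 0 in both and Clec4g at 0.352 and 1.09, against 248 to 428 in the other 6, and Stab2, Oit3, Dnase1l3, Wnt2 and Rspo3 also lay below the lowest of the other 6. Fcgr2b stood at 35.4 and 36.6 against 99.9 to 136. Kdr and Pecam1, which endothelium of many organs makes, were not lower as a pair, Kdr at 21.2 and 48.2 against 22.2 to 42.0 and Pecam1 at 52.1 and 58.3 against 13.6 to 27.9. In a further 2 WT NDMA libraries at day 1, the sex-linked genes went against the labelled sex. Both belonged to batch 200803Eng, and they were kept.

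The hepatic sinusoids are lined by a fenestrated endothelium that takes up waste molecules from the blood through scavenger receptors and lectins, and that loses these receptors when it turns into an ordinary capillary lining. The endothelium around the central vein also secretes Wnt ligands and R-spondins, which keep nearby hepatocytes in a pericentral state with high Glul and Cyp2e1. In whole tissue, fewer endothelial cells and less of a transcript per cell cannot be told apart.

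The 10 genes lie on 8 chromosomes of GRCm38, each on the minus strand. Stab2 spans chr10:86841198-87008025, Clec4g chr8:3707064-3720651, Lyve1 chr7:110850607-110863239, Kdr chr5:75932827-75978458 and Oit3 chr10:59422958-59441778. Fcgr2b spans chr1:170958617-170976547, Dnase1l3 chr14:7964533-7994573, Pecam1 chr11:106654217-106750628, Wnt2 chr6:17988940-18030585 and Rspo3 chr10:29452416-29535867. Annotated genes on the other strand overlap Stab2 (5 genes), Clec4g, Fcgr2b and Rspo3, and a gene on the same strand, Gm20276, also overlaps Rspo3. Whether the counting used strand was not given in the sources used here, so reads of these overlapping genes may be included.

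Promoters are shown for 4 of the 5 members that had a RefSeq promoter of the same build and fell 1 day after NDMA in Mgmt-/- livers. Fcgr2b, the other one, was left out because its RefSeq window ended 226 bases inside the annotated gene. Each sequence is the 100 bases before the gene's start on the minus strand of GRCm38.p6, written 5′ to 3′. Capitals mark GGAAG on either strand, a form of the site bound by ETS factors, which are the general activators of endothelial genes.
Stab2 chr10:87008026-87008125: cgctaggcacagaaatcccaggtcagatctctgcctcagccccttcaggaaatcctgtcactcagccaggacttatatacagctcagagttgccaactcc
Clec4g chr8:3720652-3720751: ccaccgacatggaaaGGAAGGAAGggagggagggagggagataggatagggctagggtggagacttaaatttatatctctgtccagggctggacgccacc
Kdr chr5:75978459-75978558: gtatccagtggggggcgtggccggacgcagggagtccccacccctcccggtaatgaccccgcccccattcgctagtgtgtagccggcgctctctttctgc
Wnt2 chr6:18030586-18030685: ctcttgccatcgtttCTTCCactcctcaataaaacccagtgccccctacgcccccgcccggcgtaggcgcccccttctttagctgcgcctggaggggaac
The Clec4g window held 2 matches that share a base and the Wnt2 window held 1, on the opposite strand, while the Stab2 and Kdr windows held none. Over 32851 promoter windows of this length, 35.75% held GGAAG on either strand. GATAA, a form of the site bound by GATA factors such as the sinusoidal regulator Gata4, was not found in the 4 windows on either strand. Over all windows, 8.55% held it. Other forms of the GATA and ETS sites were not sought, so the 4 windows may hold them.

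At day 1 after NDMA, most of the 10 genes stood lower than in saline livers, and Lyve1, a hyaluronan receptor, stood higher. A gene was called when limma gave an adjusted p under 0.05 and a log2 change beyond 0.58, with sex and batch in the fit and adjustment over all genes tested. All 10 members passed the filter, a mean of 5 normalized reads, in each comparison. In WT livers at day 1, 3 of 10 fell and 0 rose, against 4.19% of 9028 genes lower and 5.01% higher. The Mgmt-/- livers of that time had 7 of 10 lower and 1 higher, against 8.64% of 10055 genes lower and 9.06% higher.

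At day 2, 1 of 10 fell and 0 rose in WT livers, against 2.91% of genes lower and 3.33% higher, and 3 fell and 2 rose in Mgmt-/- livers, against 7.5% and 12.4%. At day 5, limma called 0 of 10 in WT, where 2 had an unadjusted p under 0.05 and edgeR and DESeq2 each called 0, with a background of 1.39% lower and 2.22% higher. Of the 10, 2 fell and 1 rose in Mgmt-/- livers then, against 6.71% lower and 11.1% higher. With the 2 libraries holding kidney transcripts included, 0 of 10 were called there by limma, and 1 had an unadjusted p under 0.05.

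Of the later livers, WT had 0 members called at week 10 and at month 10 by limma, edgeR or DESeq2. Of the 10, 1 and 2 had an unadjusted p under 0.05 at the respective times. The background was itself low, at 0% lower and 0.0249% higher at week 10, where 175 genes of each direction had an unadjusted p under 0.05, and 0% lower and 0% higher at month 10, where 423 lower and 334 higher genes did. Lyve1 was the member that rose in Mgmt-/- livers at both times, and 0 fell, against 3.88% lower and 7.27% higher at week 10 and 2.99% lower and 4.75% higher at month 10. In the plot of NDMA differences by time, Mgmt-/- at day 1 was the only comparison with most members called lower. Some of these were also called lower in WT at day 1. Lyve1 was called higher in Mgmt-/- livers at each time.

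**Figure D1:**
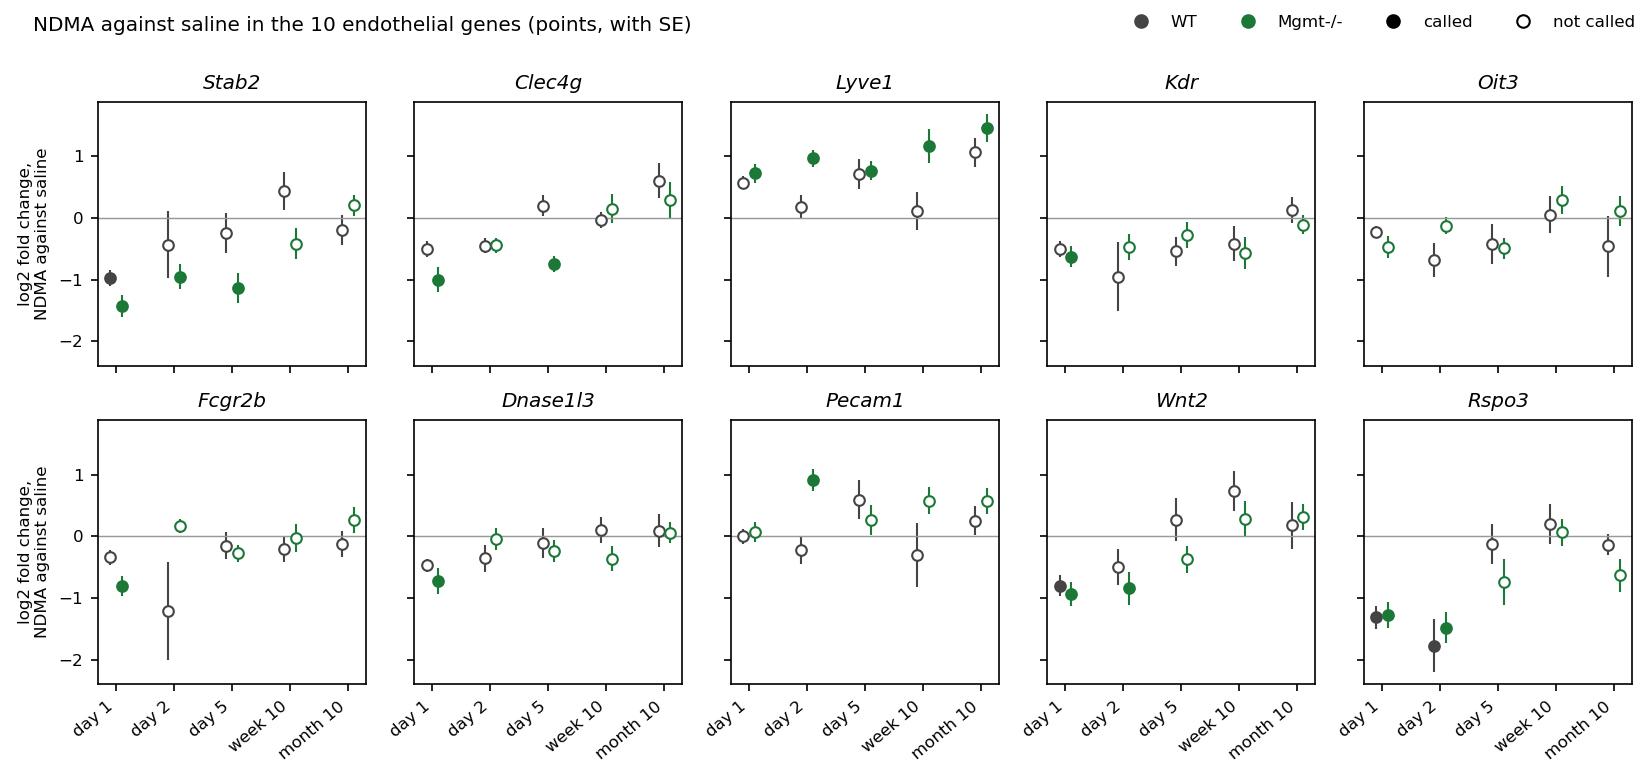
Difference between NDMA and saline livers for each member (log2 scale, y axis) at the 5 collection times (x axis), with error bars of 1 standard error; grey is WT, green is Mgmt-/-, and filled points were called. Stab2, Wnt2 and Rspo3 were called lower at day 1 in both genotypes, and Lyve1 stood at or above 0 in all 10 comparisons.

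Stab2, the scavenger receptor that clears hyaluronan from the blood, fell in both genotypes at day 1. In Mgmt-/- saline livers at day 1 it ranged from 28.4 to 81.8 normalized reads (median 46.6), and in NDMA livers from 10.3 to 24.9 (median 18.7). All 12 NDMA livers lay below the lowest saline liver. The difference was -1.43 on the log2 scale (SE 0.17, interval of 1.96 SE from -1.77 to -1.09, adjusted p = 4.66e-08 by limma), and it was -1.18 in batch 191212Eng and -1.93 in batch 200803Eng.

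In WT livers at day 1, saline values of Stab2 ran from 11.8 to 134 (median 39.0) and NDMA values from 11.1 to 70.1 (median 28.4), so that the groups overlapped, with 19 of 26 NDMA livers below the saline median. The fitted difference was -0.97 (SE 0.13, adjusted p = 4.98e-08). Within batches it was -1.13 in 191212Eng, -1.26 in 210901Eng and -0.10 in 200803Eng, a batch of 4 saline and 6 NDMA livers, so the fall in WT was not seen in the smallest batch. Fitted in 200803Eng alone, 0 of the 10 members were called in WT by limma. That batch held the 2 libraries whose sex-linked genes went against the label. Without them (chosen after seeing the data) its Stab2 difference was -0.40 and limma again called 0 of 10, while over all batches Stab2 was -1.06 and 4 of 10 were called, with Lyve1 added at 0.61.

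The fall of Stab2 lasted to day 5 in Mgmt-/- livers. At day 2 it measured 29.2 to 65.8 (median 42.7) with saline and 13.2 to 29.5 (median 24.2) with NDMA, a difference of -0.95 (SE 0.20, adjusted p = 0.000678). At day 5 the ranges were 31.8 to 74.1 (median 38.6) and 8.19 to 28.1 (median 20.5), a difference of -1.13 (SE 0.24, adjusted p = 0.000908). At day 2, 7 of 8 NDMA livers lay below the lowest saline liver, and at day 5 all 8 did. With the 2 libraries holding kidney transcripts the day 5 difference was -0.39 (adjusted p = 0.685).

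In WT livers at day 2, Stab2 was 0 to 44.8 with saline (median 26.3) and 6.18 to 23.3 with NDMA (median 12.6). Its difference was -0.43 (SE 0.54, adjusted p = 0.707), and the 0 was in the saline library D215004, which held 392164 reads. Without that library the difference was -0.97 (adjusted p = 0.0367) and Stab2 was called, as was Oit3 at -0.94 (adjusted p = 0.0020). The remaining values of Stab2 were -0.24, 0.44 and -0.20 in WT at day 5, week 10 and month 10, and -0.42 and 0.20 in Mgmt-/- at week 10 and month 10, with none called.

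Clec4g, the lectin also called LSECtin, fell in Mgmt-/- livers at days 1 and 5. At day 1 its saline livers ran from 100.4 to 340.1 normalized reads (median 196) and its NDMA livers from 46.0 to 207 (median 99.5), a difference of -1.001 (SE 0.20, adjusted p = 0.000271), with -0.86 and -1.27 within the 2 batches. At day 5 the ranges were 248 to 428 (median 329) and 149.6 to 241 (median 196), a difference of -0.74 (SE 0.13, adjusted p = 0.000135). All 8 NDMA livers at day 5 lay below the lowest of the 6 saline livers. With the 2 libraries holding kidney transcripts, which nearly lack Clec4g, the sign turned to 1.15 (adjusted p = 0.612).

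Smaller differences of Clec4g had an adjusted p under 0.05 but did not reach the fold threshold. These were -0.51 in WT at day 1 (adjusted p = 0.00317), -0.45 in WT at day 2 (adjusted p = 0.0282) and -0.44 in Mgmt-/- at day 2 (adjusted p = 0.00646). In WT at day 2, saline livers measured 189 to 286 and NDMA livers 143 to 208, and 5 of 8 NDMA livers lay below the lowest saline liver. The later values were 0.20, -0.04 and 0.60 in WT from day 5 to month 10, and 0.15 and 0.28 in Mgmt-/- at week 10 and month 10, with none called.

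Fcgr2b, the inhibitory Fc receptor with which sinusoidal endothelium takes up immune complexes and which B cells and myeloid cells also carry, fell in Mgmt-/- livers at day 1. Saline livers ran from 75.6 to 152 (median 99.1) and NDMA livers from 23.5 to 114 (median 57.5), with 9 of 12 NDMA livers below the lowest saline liver. The difference was -0.81 (SE 0.16, adjusted p = 0.000185). At day 2 it was 0.16, with all 8 NDMA livers above the saline median (adjusted p = 0.308), and at day 5 -0.28 (adjusted p = 0.146). The WT value at day 1 was -0.34 (adjusted p = 0.0405, under the fold threshold). The WT value at day 2, -1.22 (SE 0.79, adjusted p = 0.42), rested on library D215006, listed at 0 with 150038 reads in all, and without the libraries under 300000 reads it was -0.40 (adjusted p = 0.066). The later WT values of Fcgr2b were -0.15, -0.21 and -0.13 at day 5, week 10 and month 10. In Mgmt-/- livers they were -0.03 and 0.26 at week 10 and month 10, and limma called none of these.

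Markers of other cells also differed in Mgmt-/- livers at day 1, where 8.64% of all genes fell and 9.06% rose. Of 9 B and T cell markers in Mgmt-/- livers at day 1, 4 passed the filter, of which Cd79b, the B cell receptor subunit, fell (-0.79) and the T cell and cytotoxic cell genes Cd3d (1.40) and Nkg7 (1.46) rose, and the list summed to 24.4 to 79.6 normalized reads with saline and 32.9 to 238 with NDMA, with Cd79b and Nkg7 the most abundant in turn. Of 5 recruited myeloid markers tested, Ccr2 rose (1.77) and S100a9 fell (-1.35), with sums of 258 to 2526 and 384 to 3349. The hepatocyte markers Alb (-0.82), Apoa1 (-0.80) and Serpina1c (-0.99) fell, 3 of 5, as did 4 of 5 red cell precursor markers, led by Alas2 (-1.06). The hepatocyte list summed to 151498 to 403880 with saline and 100810 to 244559 with NDMA, led by Alb, and the red cell list to 14454 to 49089 and 9808 to 31088, led by Hbb-bs. The part of these cells in the values of Fcgr2b and the other members was not tested.

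Lyve1, the hyaluronan receptor of sinusoidal and lymphatic endothelium that some macrophages also carry, moved the other way. It rose in Mgmt-/- livers at each of the 5 times. At day 1 saline livers measured 32.8 to 115 (median 49.9) and NDMA livers 43.2 to 200.2 (median 92.9). At day 2 the ranges were 57.2 to 92.3 (median 64.8) and 96.5 to 183 (median 134), and at day 5 they were 52.9 to 104 (median 69.0) and 96.1 to 151 (median 124). The NDMA and saline livers did not overlap at day 2, and at days 2 and 5 all 8 NDMA livers lay above the saline median.

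The level of Lyve1 was lower in older livers, and the difference persisted. At week 10 it was 6.12 to 24.2 with saline (median 16.3) and 19.2 to 60.7 with NDMA (median 33.2). At month 10 it was 6.35 to 29.2 (median 11.9) and 22.4 to 79.8 (median 34.5). All 8 and all 13 NDMA livers lay above the saline medians. The differences over the 5 times were 0.72 (SE 0.16, adjusted p = 0.000588), 0.97 (SE 0.14, adjusted p = 5.52e-06), 0.77 (SE 0.16, adjusted p = 0.000689), 1.17 (SE 0.27, adjusted p = 0.0049) and 1.46 (SE 0.23, adjusted p = 6.57e-05).

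In WT livers Lyve1 was 18.6 to 60.7 with saline (median 39.8) and 29.9 to 112 with NDMA (median 55.4) at day 1, with 25 of 26 NDMA livers above the saline median. The difference of 0.57 (SE 0.11, adjusted p = 5.82e-05) lay just under the fold threshold, and edgeR and DESeq2, each at 0.60, called it. Within batches it was 0.83 in 191212Eng, 0.67 in 210901Eng and -0.00 in 200803Eng. The later WT values were 0.18, 0.72, 0.11 and 1.06, with none called. At month 10, 12 of 13 NDMA livers lay above the saline median, at 8.39 to 32.4 (median 17.1) against 1.60 to 26.2 (median 8.61), with an interval of 0.60 to 1.53 and an adjusted p of 0.336 over 9254 genes.

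Some macrophage genes also changed in Mgmt-/- livers at the times when Lyve1 rose, in both directions at day 1 and upward at the later times. Of 12 Kupffer cell and macrophage markers, 3 fell and 2 rose at day 1, while over the later times 0 fell and 6 (day 2), 7 (day 5), 6 (week 10) and 4 (month 10) rose. Over all genes 8.64% fell and 9.06% rose at day 1, and 12.4%, 11.1%, 7.27% and 4.75% rose at the later times in turn. The summed level of the markers was 824 to 1499 with saline and 1461 to 3319 with NDMA on day 2, then 604 to 1250.2 and 1285 to 1917 (week 10), and 128 to 1384 and 451 to 2296 (month 10). Cd5l, a secreted macrophage protein, was the most abundant of the list in the NDMA livers. The same list in WT had 1 lower and 3 higher on day 1, then 2 lower and 1 higher (day 2) and 0 lower and 1 higher (day 5), and 0 were called in the adult livers by limma, edgeR or DESeq2, with 1 (week 10) and 2 (month 10) at an unadjusted p under 0.05. The WT shares over all genes were 4.19% lower and 5.01% higher (day 1), 2.91% and 3.33% (day 2), and 1.39% and 2.22% (day 5). The part of macrophages in the Lyve1 values was not tested. Of the lymphatic markers, Prox1, which hepatocytes also express, was the single one that passed the filter, and it was not called in any of the 10 comparisons.

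**Figure D2:**
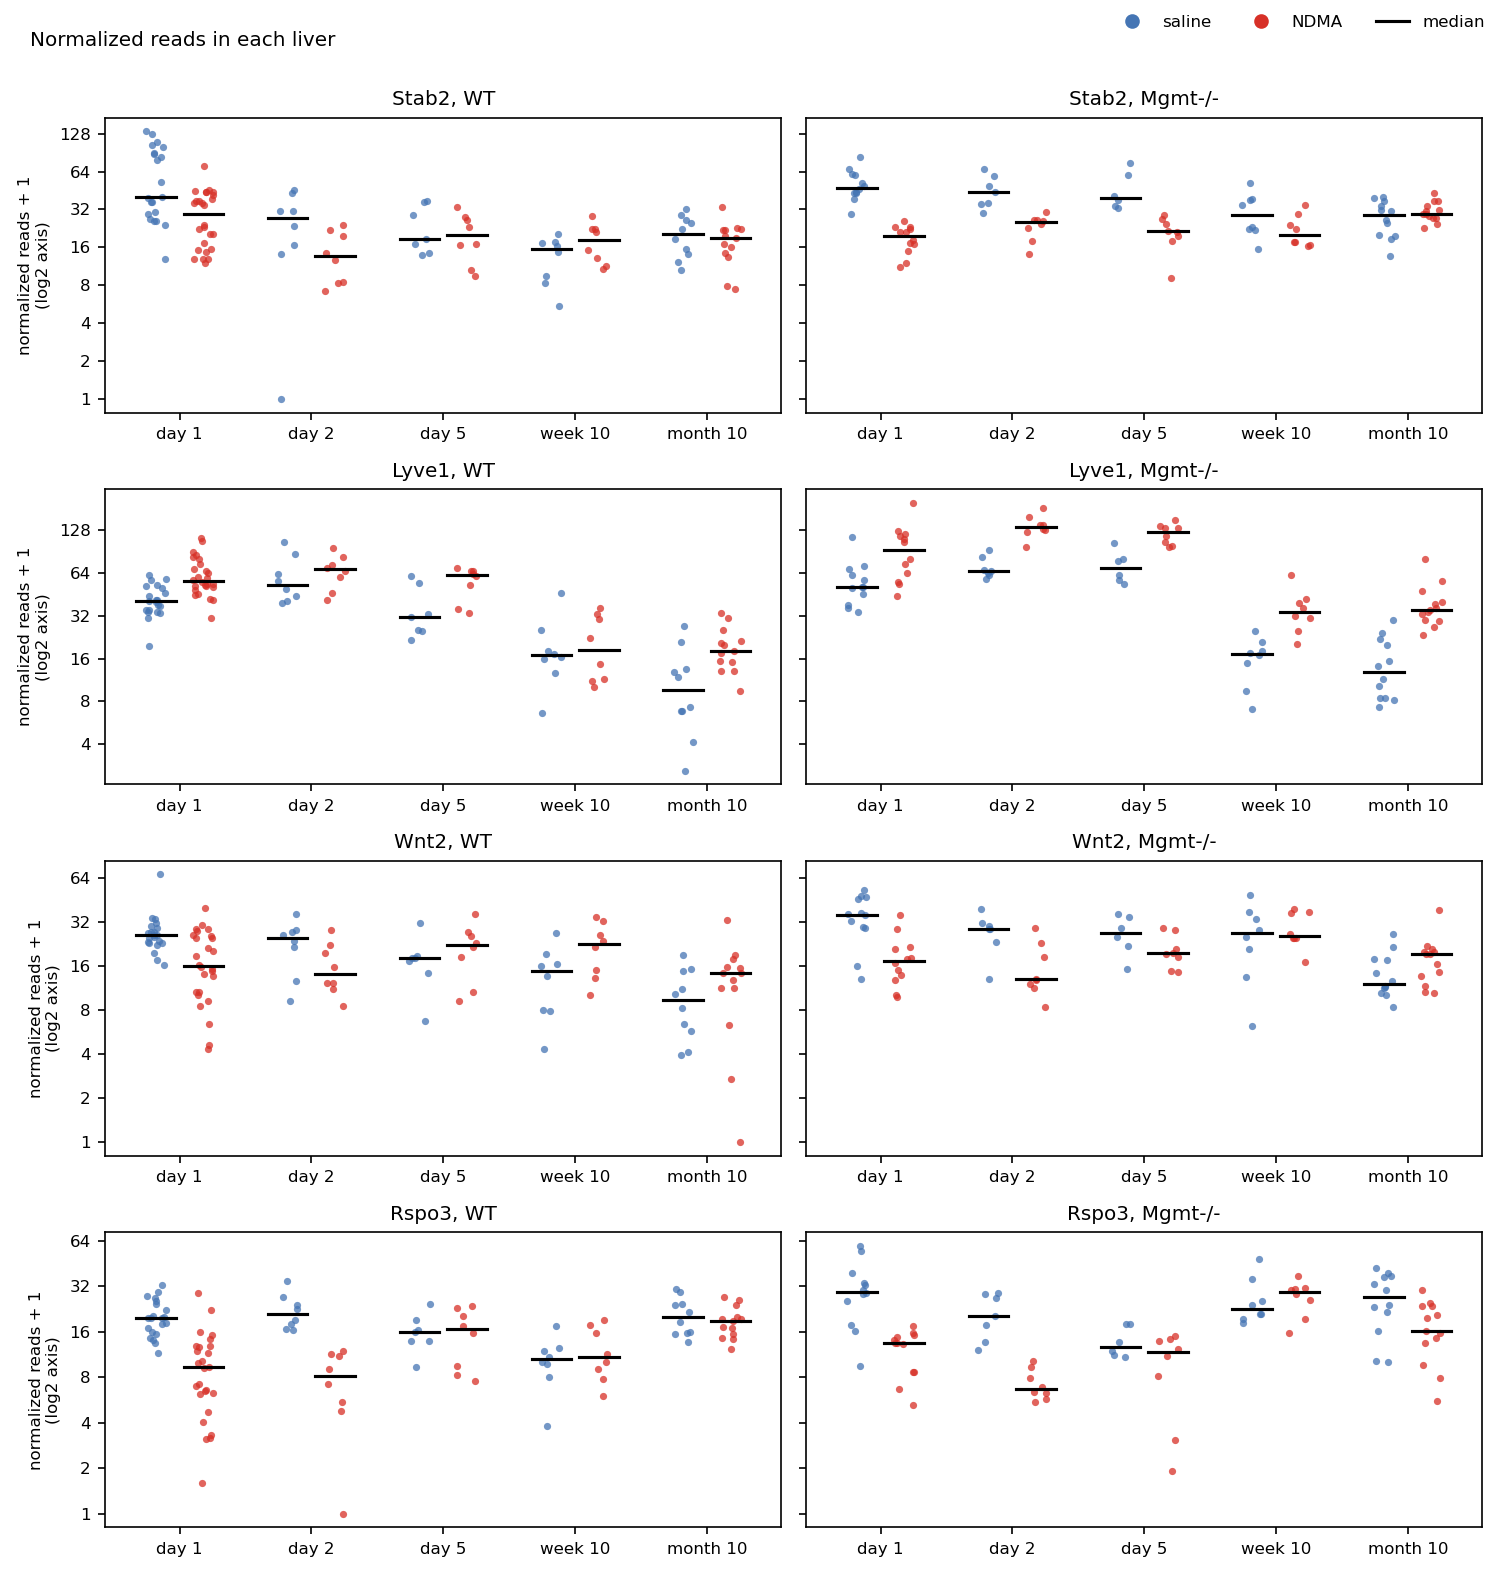
Normalized reads plus 1 (log2 axis) of Stab2, Lyve1, Wnt2 and Rspo3 in each liver by collection time and genotype, with saline in blue, NDMA in red and bars at the medians; the 2 libraries with kidney transcripts are left out. Stab2 and Rspo3 were called lower with NDMA in Mgmt-/- livers at days 1 and 2, and Lyve1 was higher with NDMA in Mgmt-/- livers at each time.

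Kdr, the main signalling receptor for VEGF-A, fell in Mgmt-/- livers at day 1. It ran from 32.4 to 63.0 with saline (median 41.7) and from 14.6 to 52.5 with NDMA (median 27.6), with 10 of 12 NDMA livers below the lowest saline liver. The difference was -0.63 (SE 0.17, adjusted p = 0.00445), with -0.51 and -0.87 within the 2 batches. The WT value at day 1 was -0.50 (adjusted p = 0.00409, under the fold threshold), and within batches -0.53, 0.14 and -0.78. In the other comparisons the values of Kdr ran from -0.95 (SE 0.56, WT at day 2) to 0.13 (WT at month 10), and none was called. At week 10 in Mgmt-/- livers all 8 NDMA livers lay below the saline median, with a difference of -0.57 (adjusted p = 0.174).

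Pecam1, the junctional adhesion molecule of all endothelium that platelets and leukocytes also carry, differed little between the groups at day 1 and rose in Mgmt-/- livers at day 2. The day 1 differences were -0.00 in WT (interval from -0.24 to 0.24) and 0.07 in Mgmt-/- (interval from -0.25 to 0.39). At day 2 Mgmt-/- saline livers ran from 16.5 to 39.6 (median 21.9) and NDMA livers from 33.9 to 53.4 (median 41.1), a difference of 0.91 (SE 0.18, adjusted p = 0.000396), with 6 of 8 NDMA livers above the highest saline liver. The later Mgmt-/- values were 0.27, 0.58 and 0.57 at day 5, week 10 and month 10 (adjusted p = 0.479, 0.0959 and 0.0749). The WT values ran from -0.31 at week 10 to 0.59 at day 5, and limma called none of all these. At month 10 in Mgmt-/- livers edgeR and DESeq2, each at 0.65 with an adjusted p of 0.049, called Pecam1 higher.

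Other cells that carry Pecam1 also differed in Mgmt-/- livers at day 2, where 7.5% of all genes fell and 12.4% rose. Of 5 recruited myeloid markers tested in Mgmt-/- livers, 1 fell and 3 rose, led by Ccr2 (3.43), Ly6c2 (2.66) and Lyz2 (2.06), and the summed level of the list was 358 to 656 with saline and 985 to 3371 with NDMA, with Lyz2 the most abundant. Of 3 platelet markers tested, 0 were called by limma, edgeR or DESeq2, and 0 had an unadjusted p under 0.05. The part of leukocytes in the Pecam1 values was not tested.

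Oit3, a secreted protein that marks sinusoidal endothelium, was not called by limma in any of the 10 NDMA comparisons. Its Mgmt-/- values were 26.1 to 104 with saline (median 57.9) and 22.6 to 62.6 with NDMA (median 41.2) at day 1, a difference of -0.47 (SE 0.18, adjusted p = 0.0544). At day 5 it was 66.5 to 104 and 40.2 to 78.8, a difference of -0.49 (adjusted p = 0.0442, under the fold threshold). The WT values ran from -0.68 at day 2 (adjusted p = 0.137) to 0.05 at week 10. On the whole reads of WT at day 2, edgeR (-0.82, adjusted p = 0.0355) and DESeq2 (-0.82, adjusted p = 0.0367) called Oit3 lower, as did limma without the saline library D215004.

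Dnase1l3, a secreted nuclease that digests DNA in chromatin and that macrophages can also make, fell in Mgmt-/- livers at day 1. Saline livers ran from 24.6 to 72.1 (median 40.5) and NDMA livers from 7.47 to 45.1 (median 26.6), a difference of -0.73 (SE 0.21, adjusted p = 0.00937) and 11 of 12 NDMA livers below the saline median. At day 2 the difference was -0.05 (interval from -0.40 to 0.31). Its WT value at day 1 was -0.47 (adjusted p = 0.000626, under the fold threshold), and it was not called at the other times in either genotype.

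Wnt2, a Wnt ligand of sinusoidal and central vein endothelium, fell at day 1 in both genotypes and at day 2 in Mgmt-/- livers. WT livers at day 1 measured 15.3 to 66.5 with saline (median 25.0) and 3.31 to 38.4 with NDMA (median 14.9), with 14 of 26 NDMA livers below the lowest saline liver. The difference was -0.80 (SE 0.17, adjusted p = 0.000204), and -1.29, -0.44 and -0.60 within batches 191212Eng, 200803Eng and 210901Eng. In Mgmt-/- at day 1 the ranges were 11.9 to 52.0 (median 34.8) and 8.83 to 34.5 (median 16.2), and all 12 NDMA livers lay below the saline median. That difference was -0.93 (SE 0.19, adjusted p = 0.000345), with -0.97 and -0.85 within batches.

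At day 2 in Mgmt-/- livers, Wnt2 was 12.1 to 38.1 with saline (median 27.7) and 7.42 to 27.8 with NDMA (median 11.96), a difference of -0.85 (SE 0.26, adjusted p = 0.018). With libraries scaled to the same total it was -0.68 (adjusted p = 0.057) and not called. From day 5 onward the values were -0.37, 0.29 and 0.32 in Mgmt-/- livers and 0.27, 0.73 and 0.18 in WT, with none called. The WT value at week 10 had an interval from 0.09 to 1.38 and an adjusted p of 0.91.

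Rspo3, an R-spondin that keeps Wnt receptors on the cell surface and that central vein endothelium and stellate cells make, had the largest fall of the 10 members in WT at days 1 and 2 and in Mgmt-/- at day 2. In WT at day 1 it was 10.5 to 31.7 with saline (median 18.8) and 0.608 to 28.0 with NDMA (median 8.32), and 16 of 26 NDMA livers lay below the lowest saline liver. The difference was -1.32 (SE 0.19, adjusted p = 5.28e-07), with -1.95, -0.70 and -1.12 within batches 191212Eng, 200803Eng and 210901Eng. In Mgmt-/- at day 1 it was 8.50 to 58.1 (median 28.4) and 4.27 to 16.6 (median 12.5), a difference of -1.28 (SE 0.21, adjusted p = 1.52e-05), and all 12 NDMA livers lay below the saline median.

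At day 2 the NDMA and saline livers did not overlap for Rspo3 in either genotype. WT saline livers measured 15.4 to 33.8 (median 19.9) and NDMA livers 0 to 10.9 (median 7.12), a difference of -1.78 (SE 0.43, adjusted p = 0.0135). Mgmt-/- livers measured 11.2 to 27.9 (median 19.2) and 4.45 to 9.27 (median 5.68), a difference of -1.48 (SE 0.26, adjusted p = 7.83e-05). The WT call rested on few reads, 6 to 20 a library in the 5 saline libraries with whole reads and 0 to 12 with NDMA. The edgeR fit also called Rspo3 (-1.21, adjusted p = 0.0237), and DESeq2 gave -1.25 with no adjusted p (unadjusted p = 0.00157). The limma call was lost without the libraries whose whole reads could not be recovered (-1.63, adjusted p = 0.14) and kept without the libraries under 300000 reads (-1.38, adjusted p = 0.00079). By day 5 Rspo3 stood at -0.13 in WT and -0.74 in Mgmt-/- (adjusted p = 0.159), and it was not called at week 10 or month 10, where Mgmt-/- livers at month 10 gave -0.63 (adjusted p = 0.14) with 12 of 13 NDMA livers below the saline median.

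Stellate cells, the other source of Rspo3, were followed by 9 of 11 markers that passed the filter. At day 1, 4 fell in WT and 5 in Mgmt-/- livers and 0 rose, led by Reln, a matrix protein of quiescent stellate cells (-1.90 and -2.01). Over all genes 4.19% and 8.64% fell at that time. At day 2, 3 and 4 fell and 0 rose, again led by Reln (-1.80 and -2.12), against 2.91% and 7.5% of all genes lower. The summed level of the list at day 2 was 954 to 1762 with saline and 536 to 937 with NDMA in WT, and 1093 to 1610.0 and 865 to 1303 in Mgmt-/-, with Dcn the most abundant gene. The part of stellate cells in the Rspo3 values was not tested.

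Set side by side, the differences of the Wnt sources were more negative than the median of the sinusoidal genes at days 1 and 2. The median of the 8 sinusoidal genes in WT at day 1 was -0.40, against -0.80 for Wnt2 and -1.32 for Rspo3, and the same 3 values for day 2 were -0.44, -0.49 and -1.78. The 3 values in Mgmt-/- livers were -0.68, -0.93 and -1.28 (day 1), then -0.09, -0.85 and -1.48 (day 2) and last -0.28, -0.37 and -0.74 (day 5). In WT at day 5 neither source lay below the sinusoidal median (-0.13), with Wnt2 at 0.27 and Rspo3 level with it at -0.13. Single sinusoidal genes lay lower still. Stab2 was below Rspo3 at days 1 and 5 in Mgmt-/- livers, with Clec4g level with Rspo3 at day 5 (both -0.74). Wnt2 ranked 3 of the 10 from the lowest in WT at day 1 and 5 of the 10 at day 2, and 4, 3 and 5 in Mgmt-/- livers over days 1, 2 and 5. Over all genes the median lay between -0.08 and 0.04 in the 10 comparisons. These are differences within each gene, given as a description, and no test compared the genes with each other.

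Scaling bears on small differences in Mgmt-/- livers. With libraries scaled to the same total, the median over all genes was 0.20 in place of 0.02 for day 1, 0.19 in place of 0.03 for day 2, 0.17 in place of 0.03 for day 5 and 0.24 in place of 0.04 for week 10. No called member changed its direction under that scaling, but 3 of the Mgmt-/- falls were no longer called, Kdr (-0.44, adjusted p = 0.0724) and Dnase1l3 (-0.54, adjusted p = 0.057) at day 1 and Wnt2 at day 2. Clec4g at day 5 stayed just past the fold threshold (-0.59), and Pecam1 at week 10 gained a call (0.77).

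The genes that hepatocytes express under Wnt signal near the central vein mostly fell in the early period. Of 12 pericentral targets tested in WT, the number that fell was 12 for day 1 (median -1.41), 10 for day 2 (median -1.81) and 8 for day 5 (median -1.28), and 0 rose, against 4.19%, 2.91% and 1.39% of all genes lower. Mgmt-/- livers had 13 of 13 lower on day 1 (median -1.99), then 11 of 12 (day 2, median -2.56) and 10 of 12 (day 5, median -1.50), against 8.64%, 7.5% and 6.71% of all genes. Slc1a2, the pericentral glutamate transporter, gave the largest change in Mgmt-/- livers at -3.84, -4.69 and -3.81. At week 10, 5 of 12 fell and 1 rose (median -0.32), and at month 10, 5 of 14 fell (median -0.51), against 3.88% and 2.99% of all genes lower, while in WT 0 were called at both times by limma, edgeR or DESeq2 (medians 0.27 and -0.22), with 2 and 4 at an unadjusted p under 0.05.

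A minority of the other Wnt pathway genes also fell at day 1. In WT 4 of 14 fell and 0 rose (median -0.22), against 4.19% of all genes lower and 5.01% higher, led by Notum, a secreted Wnt inhibitor that Wnt itself induces (-1.52), Rnf43 (-1.08) and Fzd8 (-0.94). Of 16 tested in Mgmt-/- livers, 4 fell and 0 rose (median -0.31), against 8.64% lower and 9.06% higher over all genes, led by Notum (-2.82), Lgr5, the R-spondin receptor (-1.96), and Fzd8 (-1.22). Notum fell in Mgmt-/- livers at days 2 and 5 as well (-2.81 and -1.91). At month 10 in Mgmt-/- livers Lgr5 and Notum fell (-0.99 and -0.94) and Wls, which carries Wnt ligands to the cell surface, rose (0.81), 3 of 20 tested, against 2.99% of all genes lower and 4.75% higher.

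Further endothelial genes were also lower on balance at day 1. Of 27 further sinusoidal or pan-endothelial genes tested in WT at day 1, 8 fell and 0 rose (median -0.38, against 4.19% of all genes lower), led by the VEGF receptor Flt1 (-0.82), the clotting factor F8 (-0.76) and the scavenger receptor Stab1 (-0.69). Of 26 tested in Mgmt-/- livers, 8 fell and 1 rose (median -0.39, against 8.64% lower and 9.06% higher), led by Flt1 (-1.12), Plpp3 (-1.07) and Ptprb (-1.03). At day 2, 3 of 24 fell in WT (2.91% of all genes), led by the angiopoietin receptor Tek (-2.02), and in Mgmt-/- 3 of 24 fell and 1 rose, with Flt1 at -1.21 and Mmrn2, a vessel matrix protein, at 0.94. Over all genes the Mgmt-/- shares were 7.5% lower and 12.4% higher. At day 5, 4 of 25 fell and 1 rose in Mgmt-/- livers (6.71% and 11.1% of all genes), led again by Flt1 (-1.20). In WT limma called 0 of 24 then, with 6 at an unadjusted p under 0.05, while edgeR called 3 and DESeq2 called 4. At week 10, 2 of 25 fell in Mgmt-/- livers (Plpp3 and Nrp1, against 3.88% of all genes), and at month 10 limma called 0 of 27, with 2 at an unadjusted p under 0.05 and 1 called by edgeR and by DESeq2.

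Some genes of capillarized and activated endothelium rose after NDMA. The list held 12 genes, and those under the filter enter neither the counts nor the medians. That filter took the mean over saline and NDMA livers together, so a gene low with saline could pass on its NDMA values. In WT 2 of 6, 2 of 6 and 2 of 7 tested rose on days 1, 2 and 5, against 5.01%, 3.33% and 2.22% of all genes, Ly6a (2.19, 2.53 and 2.25), an interferon-induced surface antigen that also marks other cells, and the leukocyte adhesion molecule Icam1 (1.05, 1.05 and 0.94). Mgmt-/- livers had 3 of 8 higher on day 1 (median 0.52), then 5 of 8 (day 2, median 1.40) and 5 of 8 again (day 5, median 1.30), against 9.06%, 12.4% and 11.1% of all genes, led by Ly6a (3.62, 4.09 and 4.21). Cd34, found on capillary endothelium and on progenitor cells, rose by 1.72 at day 1 and 2.09 at day 2. At week 10, 5 of 6 rose (median 1.57, against 7.27% of all genes), with Ly6a at 1.87, Vcam1 at 1.87 and the basement membrane collagen Col4a1 at 1.70. At month 10, 5 of 7 rose (median 1.07, against 4.75% of all genes), with Cd34 at 1.29, and 0 fell at any of these times. Markers of other cells, some of which also carry Vcam1 or make collagens, rose at week 10 too, 6 of 12 macrophage, 3 of 5 recruited myeloid and 3 of 9 stellate cell and fibroblast markers. The myeloid list summed to 110 to 693 normalized reads with saline and 767 to 1584 with NDMA, led by Lyz2, and the stellate list to 506 to 793 and 740 to 1116, led by Dcn. Their part in these values was not tested. In WT 0 of 6 were called in the adult livers by limma, edgeR or DESeq2, with 0 (week 10) and 1 (month 10) at an unadjusted p under 0.05.

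A pair of genes of the central and larger veins rose late in Mgmt-/- livers. Of 4 tested at week 10, 2 rose and 0 fell (median 0.76, against 7.27% of all genes higher), Lhx6 (1.30) and the fatty acid carrier Fabp4 (1.19). Of 6 at month 10 the same 2 genes rose, at 1.72 and 1.25 (median 0.67, against 4.75% of all genes higher). Macrophage markers also rose at both times, and the part of other cells in the Lhx6 and Fabp4 values was not tested. At day 1 Cdh13 fell in WT (-1.08) and in Mgmt-/- livers (-1.73). Of the VEGF and growth factor genes, 3 of 9 fell in WT at day 1, Vegfa (-0.89), Flt1 and Flt4 (-0.66), against 4.19% of all genes. Those called in Mgmt-/- livers all fell, 1 of 9 at day 1 and 1 of 6 at day 5 (Flt1), 2 of 7 at day 2 (Flt1 and Vegfa, -1.10) and 2 of 9 at week 10 (Vegfa, -1.02, and Nrp1, -0.64). Over all genes the shares lower were 8.64% (day 1), 6.71% (day 5), 7.5% (day 2) and 3.88% (week 10). Of the 7 portal and arterial genes, 2 to 4 were tested. Ltbp4, a matrix protein that binds TGF-beta, fell at day 1 in WT (-1.33) and at days 1, 2 and 5 in Mgmt-/- livers (-1.91, -1.75 and -1.60). Msr1, a scavenger receptor that macrophages also carry, rose in Mgmt-/- livers at day 5 (0.76) and week 10 (0.87).

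**Figure D3:**
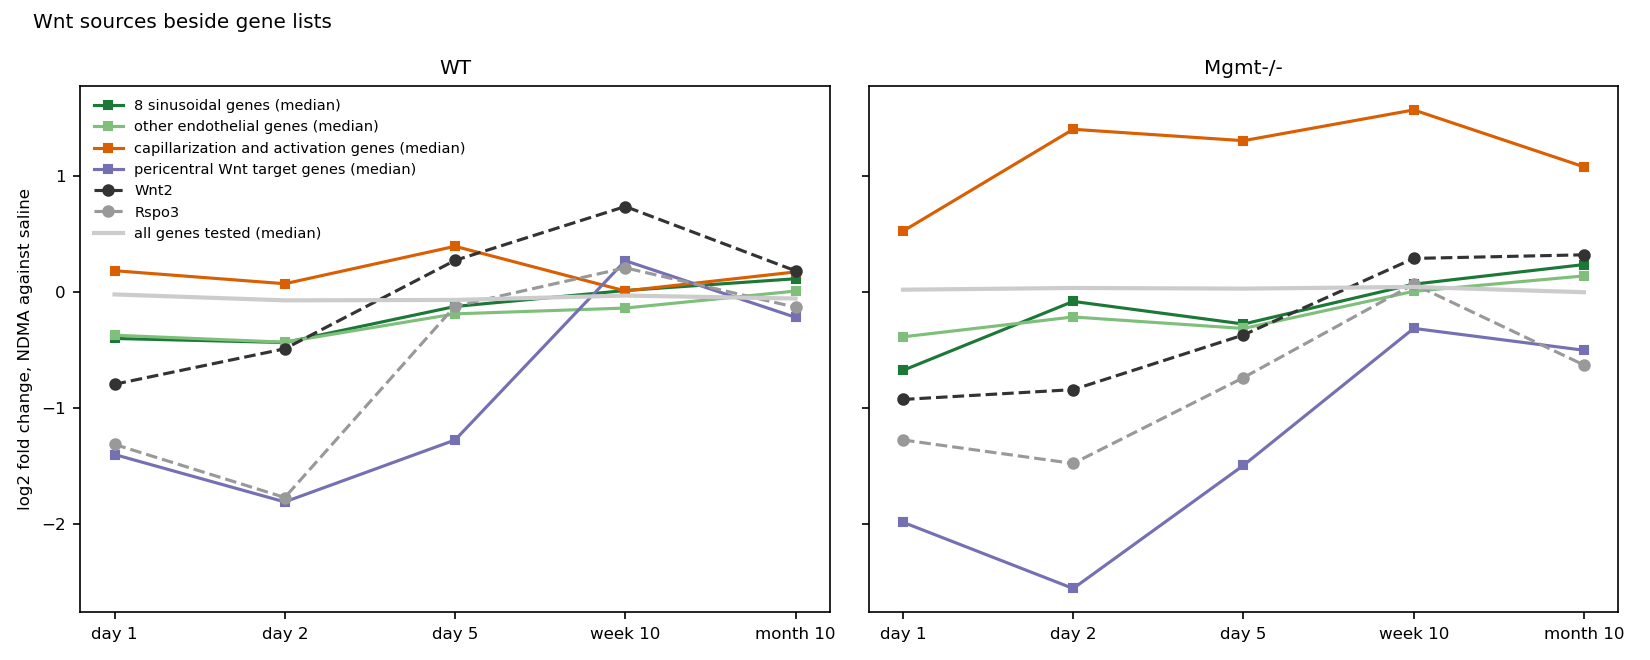
Difference between NDMA and saline livers (log2 scale, y axis) by collection time (x axis) for Wnt2 and Rspo3 and for the medians of the 8 sinusoidal genes, other endothelial genes, capillarization and activation genes, pericentral Wnt targets and all genes tested, by genotype. In Mgmt-/- livers the pericentral target median was lowest at day 2 (-2.56), as was Rspo3 (-1.48). The capillarization median, over the genes that passed the filter, stayed above 1 there from day 2 to month 10.

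The saline livers give the levels of the 10 genes with age. The earliest livers came from suckling pups and the latest from adults. Batches that hold more than 1 age link the ages in the fit, in WT through batch 200803Eng, which makes those standard errors large. At month 10 against day 1, 4 of 10 members fell and 0 rose in WT, against 21.1% of 9050 genes lower and 27.7% higher, and 7 fell and 0 rose in Mgmt-/- livers, against 24.5% of 9885 lower and 26.6% higher.

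Clec4g had a late fall. In Mgmt-/- saline livers its medians were 196, 329, 186 and 47.4 normalized reads (day 1, day 5, week 10, month 10), and in WT they were 189, 203, 225 and 54.0. The month 10 livers ran from 33.0 to 81.3 in Mgmt-/- mice, all below the lowest day 1 liver (100.4), and from 3.17 to 97.5 in WT, also below the lowest at day 1 (112). Against day 1 the month 10 difference was -1.83 in Mgmt-/- (SE 0.24, adjusted p = 1.24e-08) and -2.01 in WT (SE 0.45, adjusted p = 0.000267). At week 10 it was -0.11 and 0.43, with neither called. Within batch 200803Eng alone the month 10 difference was -1.81 in Mgmt-/- (12 livers against 4) and -1.98 in WT (3 against 4).

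Lyve1 was already lower at week 10. Its saline medians were 49.9, 69.0, 16.3 and 11.9 in Mgmt-/- and 39.8, 30.4, 15.9 and 8.61 in WT, in the same order of ages. The difference from day 1 was -1.44 at week 10 in both genotypes (adjusted p = 0.00042 in Mgmt-/- and 0.0472 in WT). At month 10 it was -1.63 (adjusted p = 5.96e-06) and -2.39 (adjusted p = 1.73e-06). Of the macrophage markers, 11 of 12 fell at month 10 in Mgmt-/- livers (median -1.68) and 10 of 12 in WT (median -2.05), against 24.5% and 21.1% of all genes lower. The part of macrophages in these Lyve1 values was not tested.

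Wnt2 fell with age in both genotypes. Its month 10 difference from day 1 was -1.76 on the log2 scale in Mgmt-/- (SE 0.33, adjusted p = 1.38e-05) and -1.18 in WT (SE 0.41, adjusted p = 0.0141). Its medians went from 34.8 to 11.1 and from 25.0 to 8.29. At week 10 it was -0.99 in Mgmt-/- (adjusted p = 0.0417) and -0.26 in WT (adjusted p = 0.833). Rspo3 fell by 0.87 in Mgmt-/- at month 10 (SE 0.32, adjusted p = 0.0203), while the WT difference was -0.12 (SE 0.37, adjusted p = 0.8). Pericentral targets went the other way at month 10, with 9 of 13 higher and 1 lower in WT (median 1.58) and 6 of 13 higher and 1 lower in Mgmt-/- (median 0.60). Over all genes 27.7% were higher and 21.1% lower in WT (median 0.27), and 26.6% and 24.5% in Mgmt-/- (median 0.12).

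Oit3 fell at month 10 in both genotypes, with differences of -0.99 in Mgmt-/- (adjusted p = 0.000765) and -1.14 in WT (adjusted p = 0.0172). Stab2 fell in Mgmt-/- livers at week 10 (-0.97, adjusted p = 0.0104) and month 10 (-1.10, adjusted p = 0.000504), while the WT value at month 10 was 0.01 (SE 0.63) and turned to -1.38 with no batch term in the fit. Fcgr2b fell at month 10 in Mgmt-/- (-0.65, adjusted p = 0.00748), with -0.48 in WT (adjusted p = 0.172). Kdr (0.93 in WT, adjusted p = 0.0571, and 0.12 in Mgmt-/-), Dnase1l3 (0.26 and 0.28) and Pecam1 (-0.62 and -0.34) were not called by limma. In WT at month 10 edgeR called 6 members, adding Fcgr2b and Pecam1 (each -0.86).

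At week 10, 1 of 10 members fell and 0 rose in WT, against 5.47% of genes lower and 4.01% higher, and 3 fell and 0 rose in Mgmt-/-, against 9.44% and 7.35%. At day 5, 0 of 10 were called in either genotype by limma or edgeR, with 0 and 2 at an unadjusted p under 0.05. The background at day 5 was 0.188% lower and 0.243% higher in WT and 3.02% and 2.21% in Mgmt-/-. With libraries scaled to the same total the median over all genes at month 10 moved from 0.27 to 0.52 in WT and from 0.12 to 0.35 in Mgmt-/-.

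The response to NDMA was compared between the genotypes as the Mgmt-/- difference minus the WT difference. At days 2 and 5 and at week 10 the genotypes shared no batch, so that a difference between them and one between batches in the response cannot be told apart. At day 2 Lyve1 differed by 0.80 (SE 0.24, adjusted p = 0.0426) and Pecam1 by 1.13 (SE 0.29, adjusted p = 0.0157), each more positive in Mgmt-/- livers, and at day 5 Clec4g differed by -0.94 (SE 0.22, adjusted p = 0.0149). In that comparison 5.86% of genes were called at day 2 and 2.05% at day 5. The Lyve1 and Pecam1 calls did not hold in each fit: edgeR gave 1.08 for Pecam1 (adjusted p = 0.053), and a fit with no batch term gave 0.81 for Lyve1 (adjusted p = 0.051). With the 2 libraries holding kidney transcripts Clec4g turned to 0.96 and was not called.

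At day 1, where the falls were largest in number, 0 of 10 members differed between the genotypes by limma or edgeR, and 3 had an unadjusted p under 0.05 (Stab2 at -0.46, Clec4g at -0.50 and Fcgr2b at -0.48), with 0.846% of genes called. At week 10 and month 10, 0 were called by either tool, with 2 and 0 at an unadjusted p under 0.05 and 4.78% and 1.15% of genes called. For Lyve1 at week 10 the difference was 1.06 (adjusted p = 0.17). For Wnt2 and Rspo3 the interaction was not called at any of the 5 times, and at day 1 its intervals ran from -0.66 to 0.40 and from -0.57 to 0.65.

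Sex was compared in Mgmt-/- saline adults. Of the 10 members, 0 were called by limma and 3 had an unadjusted p under 0.05, against 4.2% of genes called. Oit3 gave the largest value, -0.53 in males against females (adjusted p = 0.243). No count test was run for that comparison.

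The genes most like 3 of the members were sought over the 10 group means of each genotype, among 4923 genes averaging 20 normalized reads or more, by the mean of the 2 Pearson correlations. Nearest to Stab2 were Ncald (0.849), Coq9 (0.821), the mannose receptor Mrc1 (0.812), Tmed1 (0.801) and Agxt (0.801). Nearest to Wnt2 were Pemt (0.869), the Kupffer cell lectin Clec4f (0.834), Snrpb (0.826), Gchfr (0.821) and the macrophage receptor Vsig4 (0.819), and nearest to Rspo3 were Reln (0.852), Smagp (0.840), Fcna (0.817), Slc39a8 (0.814) and Dbt (0.796). The group means share libraries and treatments, so these values are a description.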

How the data were processed

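The deposited values are a signal: the authors aligned reads with STAR to GRCm38, used ESAT to count tags for each gene, and divided each library by its DESeq2 size factor, each genotype separately. Versions, annotation and strand setting were not given in the sources used here. Of 214 labelled samples, 213 had values, and whole reads were recovered in 209 (tolerance 0.1 read). Groups came from the labels. The members and gene lists were chosen with earlier results of these data known. All genes were fitted on log2(value + 1) with limma 3.58.1 (trended, robust) in R 4.3.3, with treatment, sex and batch as terms, a filter at a mean of 5 and Benjamini-Hochberg adjustment over all genes tested. In WT at days 2 and 5 and week 10, sex followed batch. Calls needed an adjusted p under 0.05 and a log2 change beyond 0.58 (no fold threshold for genotype by treatment). Each member that limma called is named in its comparison, and from other lists at most the 3 called genes with the largest change. In data simulated on Mgmt-/- day 5, with 200 genes changed by 1 on the log2 scale, 81% were recovered and 6.36% of calls were false. The changed genes were drawn from those above a minimum of expected reads, so the share recovered does not hold for members with few reads. Alternatives used edgeR 4.0.16 and DESeq2 1.42.0 on the whole reads, other pseudocounts, filters, scalings and covariates, and left-out libraries. Protein sequences were not used here.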

Additional observations from a re-analysis of the deposited data

Results flagged for a closer look

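In groups of 4 to 10 livers, 14 of 130 member-by-group sets held a library whose gap to the next on the log2(value + 1) scale, as a share of the group's range on that scale, passed the limit that chance passes in about 1 of 20 groups. In WT NDMA livers at day 2, library D215006 (150038 reads) was listed at 0 for Kdr (gap 0.709), Fcgr2b (0.906) and Rspo3 (0.631). In WT saline livers at day 2, the lowest library stood apart for Stab2 (0.692, listed at 0 in D215004) and Dnase1l3 (0.532). In WT saline livers at month 10, Clec4g (0.559) and Kdr (0.475) were lowest in D202025 (462404 reads), and Clec4g stood apart at week 10 (0.586). Pecam1 was listed at 0 in D215022 (270673 reads) of the WT NDMA livers at week 10 (0.683). In Mgmt-/- NDMA livers at day 5, D389054 was lowest for Stab2 (0.587) and Kdr (0.657), with 2212244 reads. In Mgmt-/- saline livers, Oit3 was high in 1 library at day 5 (0.767) and low in 1 at week 10 (0.685), and Clec4g was low in D209001 at week 10 (0.772, 49.1 normalized reads, 1442734 reads in all).

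By limma, the response to NDMA was called different between the genotypes for Lyve1 (0.80) and Pecam1 (1.13) at day 2 and for Clec4g at day 5 (-0.94, log2 scale, Mgmt-/- minus WT). The genotypes shared no batch at these days, so a difference between genotypes and one between batches cannot be told apart. As given above, each of these calls was lost in another fit. In the 2 saline libraries with kidney transcripts, Pecam1 measured 52.1 in the lower of them, above the 13.6 to 27.9 of the other saline livers of Mgmt-/- mice at day 5.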

How the results depend on the processing

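Of the NDMA results, 1282 alternative values kept the call, 22 gained and 21 lost a call, and 1 was counted as turned, Clec4g in Mgmt-/- at day 5 with the 2 libraries holding kidney transcripts (1.15). Values called in neither fit could change sign and still count as kept. With those 2 libraries Oit3 (0.81), Dnase1l3 (0.97), Wnt2 (0.53), Fcgr2b (0.15) and Pecam1 (-0.07) did so at day 5. Of the age results, 273 kept the call, 20 gained, 15 lost and 2 were counted as turned, both with no batch term in WT, Kdr at week 10 (-0.65) and Stab2 at month 10 (-1.38). Of the genotype comparisons, 157 kept the call, 2 lost a call and Clec4g at day 5 turned with the 2 libraries holding kidney transcripts (0.96). The counts of called members that moved by 1.5 times or more were as follows, with smaller moves left out, and the cause was not tested. In WT at day 1, 3 became 2 with a mean of at least 20, 8 with no fold threshold and 0 in batch 200803Eng alone, with or without its 2 libraries whose sex-linked genes went against the label. In WT at day 2, 1 became 0 with a mean of at least 20 or without the libraries lacking whole reads (chosen after seeing the data), and 2 with edgeR or with no fold threshold. Leaving out each library gave 1 to 3 in WT at day 2, with 3 without D215004, and 0 to 0 at day 5. In Mgmt-/- at day 1, 8 became 3 in batch 200803Eng alone, and at day 5, 3 became 0 with the libraries holding kidney transcripts. At week 10, 1 became 2 with equal totals, and at month 10, 1 became 2 with edgeR or DESeq2. For age in WT, 1 became 7 with no batch term and 2 with edgeR at week 10, and 4 became 7 with no batch term and 6 with edgeR at month 10. For age in Mgmt-/-, 0 became 2 with no batch term and 1 with the kidney libraries at day 5. At week 10, 3 became 5 with equal totals, 0 with the kidney libraries, 1 in batch 200803Eng alone and 2 with edgeR, and at month 10, 7 became 3 with the kidney libraries. Between the genotypes, 2 became 1 with edgeR or no batch term at day 2, and 1 became 0 with the kidney libraries at day 5. DESeq2 gave no adjusted p for Rspo3, Stab2 and Wnt2 in WT at day 2. Rspo3 rested there on 0 to 20 reads a library, which limits its precision. No paired analysis was possible because replicate numbers are unique to each library and pair no mice.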
